A study of Mus musculus with 10 samples.

Results

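Cytochrome P450 genes of families 1 to 4 were followed in mouse liver sinusoidal endothelial cells, which line the smallest vessels of the liver. The members are all genes on the array whose symbol begins with Cyp1, Cyp2, Cyp3 or Cyp4 and goes on with a letter, without the pseudogenes marked -ps. This gave 81 of the 24704 named genes measured: 3 of family 1, 49 of family 2, 8 of family 3 and 21 of family 4. Of the 81, 78 are protein-coding in the RefSeq gene table, Cyp4x1os is a long noncoding RNA, and Cyp2d13 and Cyp2j7 are listed there as pseudogenes although their symbols do not say so. The study compared 5 Gata4-LSEC-KO samples with 5 control samples of sibling mice. The knockout carried a Clec4g-icre transgene, active where control sequences of the sinusoidal endothelial gene Clec4g are active, together with floxed alleles of Gata4, a zinc finger transcription factor gene. The labels call the controls WT and do not say which of these alleles they carried. Each sample pooled the livers of 3 mice, and its cells were enriched by density gradient and magnetic beads against CD146, so that cells of other kinds can remain.

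Cytochromes P450 are haem enzymes that insert an oxygen atom into their substrates. Most enzymes of families 1 to 3 act on drugs, pollutants and steroids, and many of family 4 hydroxylate fatty acids and eicosanoids. In the liver these enzymes are known mainly from hepatocytes. Several of them are made in the hepatocytes around the central vein, where Wnt ligands from the neighbouring endothelium set the pericentral programme. A smaller number, such as Cyp1b1 and Cyp4b1, is known from endothelium and other cells outside the hepatocyte.

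Values are array readings on a log2 scale, so a difference of 1 is a doubling, and the median reading of an array was 3.71. Fold changes are knockout minus control with their standard error (SE), tested with limma on all 24704 genes, and a gene was called when its p-value, adjusted by the Benjamini-Hochberg method over those genes, was under 0.05. Replicates are pools of mice, and p-values weigh each group difference against the spread between the pools. The spread between mice within a pool is not seen. Readings of different probe sets are not compared as amounts of RNA, and readings under the median may hold mostly background. The 15 sinusoidal endothelial markers averaged 9.94 to 10.32 in the knockout and 10.58 to 10.83 in the control arrays, and the 12 pan-endothelial markers 9.80 to 10.17 and 9.79 to 10.04, and every marker of both lists averaged above the array median. Of these lists, 9 of the 15 sinusoidal markers fell and 2 of the 12 pan-endothelial markers rose. Over all genes 0.846% were called lower and 1.30% higher. The 2 that rose were Mcam, the gene of the bead antigen CD146 (1.24 ± 0.11, adjusted p = 0.000242), and Emcn (0.58 ± 0.12, adjusted p = 0.0253). Whether the Mcam difference affected the enrichment of the cells was not tested. The targeted gene Gata4 averaged 8.59 ± 0.24 in knockout arrays and 8.71 ± 0.15 in control arrays (SD, n = 5), and its probes were not placed relative to the deleted part, so it does not check the labels. Control replicate 1 stood apart, with correlations across genes of 0.920 to 0.944 to the other arrays, against 0.969 to 0.988 among those.

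The promoters of the 5 members whose knockout and control readings did not overlap are shown, because these are the members that separate the groups most plainly. Each runs from 250 bases before to 50 bases after the transcription start of the RefSeq annotation of GRCm38.p6, 5′ to 3′ on the gene's strand. Capitals mark matches, on either strand, to 4 motifs: GATAA, the core bound by GATA factors, GCGTG, the core bound by the aryl hydrocarbon receptor, GTTAAT, an HNF1 half-site, and CTTTGA, the core bound by TCF/LEF factors. The regions are chr19:39286835-39287134 (plus strand) for Cyp2c29, chr19:40089429-40089728 (plus) for Cyp2c50, chr7:140763569-140763868 (plus) for Cyp2e1, chr4:115647672-115647971 (minus) for Cyp4b1 and chr17:79715012-79715311 (minus) for Cyp1b1.
Cyp2c29: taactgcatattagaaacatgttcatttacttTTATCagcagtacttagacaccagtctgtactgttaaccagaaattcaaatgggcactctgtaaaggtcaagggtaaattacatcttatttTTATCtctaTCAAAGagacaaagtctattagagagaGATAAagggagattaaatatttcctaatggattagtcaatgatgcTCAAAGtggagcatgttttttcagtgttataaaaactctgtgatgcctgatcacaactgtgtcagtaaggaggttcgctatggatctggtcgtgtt
Cyp2c50: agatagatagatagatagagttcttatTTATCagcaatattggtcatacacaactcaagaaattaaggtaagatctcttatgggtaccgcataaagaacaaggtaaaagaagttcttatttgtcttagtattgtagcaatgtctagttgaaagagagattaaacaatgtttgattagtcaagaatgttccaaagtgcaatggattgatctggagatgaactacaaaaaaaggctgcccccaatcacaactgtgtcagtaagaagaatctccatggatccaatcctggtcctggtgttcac
Cyp2e1: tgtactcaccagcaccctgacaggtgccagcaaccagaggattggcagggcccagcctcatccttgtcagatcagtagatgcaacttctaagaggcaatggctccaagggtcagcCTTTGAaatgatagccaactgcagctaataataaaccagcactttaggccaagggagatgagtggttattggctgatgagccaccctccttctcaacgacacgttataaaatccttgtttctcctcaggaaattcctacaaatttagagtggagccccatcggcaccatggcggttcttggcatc
Cyp4b1: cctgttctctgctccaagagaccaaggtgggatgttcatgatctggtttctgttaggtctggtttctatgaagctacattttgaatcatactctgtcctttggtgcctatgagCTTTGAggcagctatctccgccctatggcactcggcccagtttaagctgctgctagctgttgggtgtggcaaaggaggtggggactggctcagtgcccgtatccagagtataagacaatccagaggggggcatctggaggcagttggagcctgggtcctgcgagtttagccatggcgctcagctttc
Cyp1b1: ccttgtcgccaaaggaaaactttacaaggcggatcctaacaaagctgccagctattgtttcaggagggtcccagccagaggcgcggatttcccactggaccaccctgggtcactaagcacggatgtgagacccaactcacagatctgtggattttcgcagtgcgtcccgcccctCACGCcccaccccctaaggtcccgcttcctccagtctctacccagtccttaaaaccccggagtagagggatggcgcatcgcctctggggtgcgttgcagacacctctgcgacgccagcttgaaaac

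The Cyp2c29 window held 3 GATAA and 2 CTTTGA matches, with first bases at -218, -127 and -91 and at -118 and -46 from the transcription start. That of Cyp2c50 held 1 GATAA match, at -223. Those of Cyp2e1 and Cyp4b1 held 1 CTTTGA match each, at -135 and -137, and that of Cyp1b1 held 1 GCGTG match, at -76. Promoter sequences were at hand for 65 of the 81 members. GATAA was found in at least 1 promoter of 29 of them (44.6%), against 25.4% of all 32851 promoters of this length. For CTTTGA the shares were 21.5% and 16.0%, for GCGTG 21.5% and 32.4%, and for GTTAAT 13.8% and 7.10%. Genes with several starts count once among the members and once per start among all promoters. A match describes the letters and is no evidence of binding.

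Of the 81 members, 3 were lower in the knockout and 0 higher by limma, and 78 did not pass. At an unadjusted p under 0.05, 14 members were counted. Over all genes 13.6% had an unadjusted p under 0.05 and 2.14% were called, 1.30% higher and 0.846% lower. Centring the arrays on the pan-endothelial markers moved the share of higher genes among all calls from 60.5% to 73.6%. The 3 that fell were Cyp2c29, Cyp2c50 and Cyp2e1, all known from pericentral hepatocytes. The median log2 fold change of the members was -0.13, against -0.02 over all genes, and 53 members lay below 0 and 28 above. Of all 24704 genes, 13627 lay below 0 and 11077 above, which is the background for every count by sign given here. The groups did not overlap for 5 members, 4 lower and 1 higher, and over all genes this held for 4.93%, with 2.55% higher and 2.37% lower. Readings averaged above the array median for 25 members, of which 1 was called, and at or below it for 56, of which 2 were called. The count of 3 fell to 1 on leaving out any one of knockout replicates 1 and 2 and control replicates 3, 4 and 5. It was 5 on leaving out knockout replicate 5 or control replicate 1. With the mean of 15 neutrophil markers as a covariate no gene of the 24704 was called, and that mean was higher in every knockout array than in every control array.

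**Figure D1:**
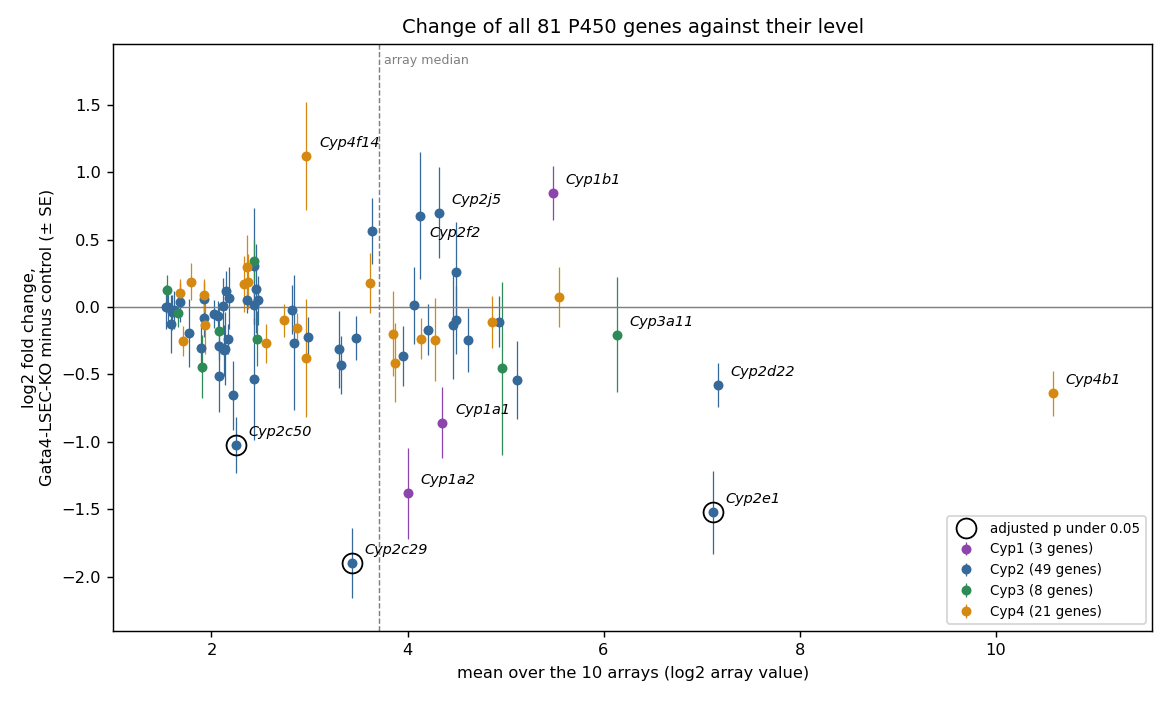
Log2 fold change (Gata4-LSEC-KO minus control, bars ± SE from limma) of the 81 P450 genes against their mean log2 reading over 10 arrays, coloured by family, with rings around genes of adjusted p under 0.05. Cyp2c29, Cyp2c50 and Cyp2e1 carry rings, and 2 of these 3 lie left of the dashed array median of 3.71.

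Cyp2c29, an epoxygenase of arachidonic acid and drug-metabolising enzyme of the liver, showed the largest change among the members. Its knockout readings were 2.84, 2.00, 3.09, 2.37 and 2.12 in replicates 1 to 5, and its control readings 3.94, 4.67, 4.05, 5.06 and 4.19. Every control array lay above every knockout array and above the array median, and every knockout array lay below that median. The log2 fold change was -1.90 ± 0.26 (SE), a 3.73-fold ratio of readings, with an adjusted p of 0.00297 by limma. The call remained without any single array, with adjusted p between 0.00184 and 0.0120.

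Cyp2e1, which oxidises ethanol, paracetamol and other small molecules, gave knockout readings of 6.18, 6.03, 6.89, 7.18 and 5.49 and control readings of 7.58, 7.57, 8.41, 8.22 and 7.60. The groups did not overlap, and the 5 knockout arrays were spread more widely than the controls. The log2 fold change was -1.52 ± 0.31 (SE), or 2.87-fold, with an adjusted p of 0.0268. Omitting any one of knockout replicates 1 and 2 and control replicates 3, 4 and 5 ended this call, with adjusted p up to 0.0781. Over all single omissions the log2 fold change stayed between -1.73 and -1.31.

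Cyp2c50, another arachidonic acid epoxygenase, gave knockout readings of 1.60, 1.89, 1.39, 1.75 and 2.07 and control readings of 2.23, 2.37, 2.93, 3.23 and 3.07. All 10 readings lay under the array median, and the nearest values of the groups were 2.07 and 2.23. The log2 fold change was -1.02 ± 0.21 (SE) with an adjusted p of 0.0270. Omitting any one of knockout replicates 1 to 4 and control replicates 3 to 5 ended the call, with adjusted p up to 0.0807, as did centring on the pan-endothelial markers (adjusted p = 0.0611).

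**Figure D2:**
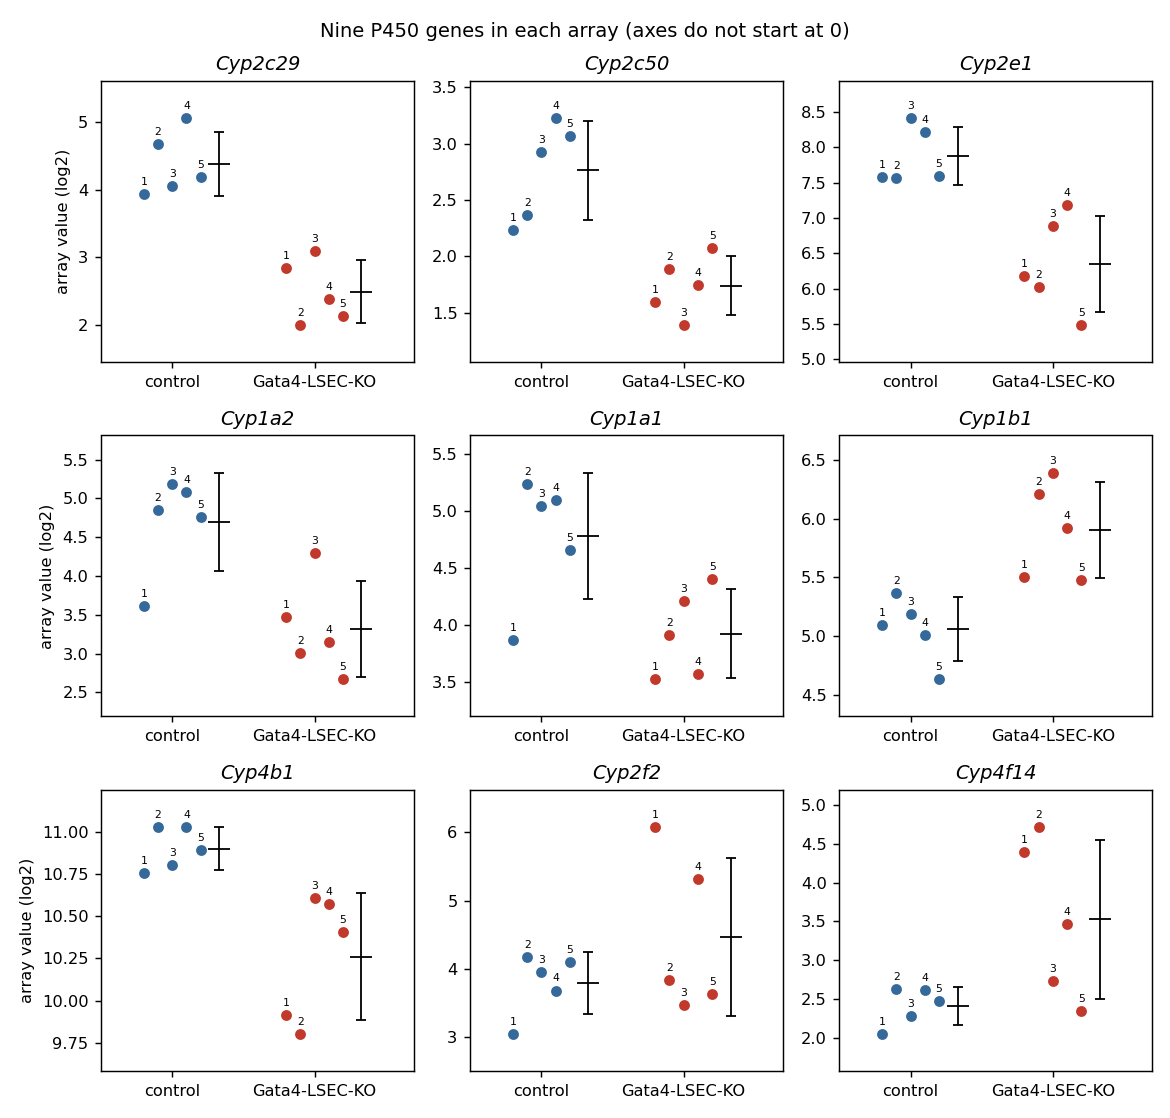
Log2 readings of 9 P450 genes in each array, with the replicate number above each point and the group mean ± SD (n = 5) beside the points. Knockout and control points do not overlap for Cyp2c29, Cyp2c50, Cyp2e1, Cyp1b1 and Cyp4b1, while Cyp2f2 and Cyp4f14 are spread widely among the knockout arrays.

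The Cyp2c subfamily held both called and uncalled genes. Its 15 measured genes are all on chromosome 19, and 2 of them were called. They are described in their order in the RefSeq table, which says nothing here of the distances or other genes between them. The measured members on either side of Cyp2c29 in that order, Cyp2c66 and Cyp2c39, had log2 fold changes of 0.00 ± 0.12 and -0.32 ± 0.19 (SE). Cyp2c54, the member before Cyp2c50 in that order, was at -0.22 ± 0.15 (adjusted p = 0.573). Cyp2c37 was at -0.65 ± 0.26 (adjusted p = 0.278), with knockout readings of 1.74 to 2.15 and control readings of 1.64 to 3.30. Cyp2c70, which makes muricholic bile acids, read 4.40 ± 0.85 and 4.53 ± 0.63 (SD, n = 5), and Cyp2c23 read 4.08 ± 0.62 and 4.07 ± 0.38. The remaining 7, among them Cyp2c38 and Cyp2c40, lay between -0.30 and 0.06 and did not pass. The promoter of Cyp2c50 is 86.6% identical to that of Cyp2c37 and 58.9% identical to that of Cyp2c29 over aligned positions. Genes of this subfamily resemble each other closely, and probe sequences were not used here, so a share of one gene's signal may come from another.

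**Figure D3:**
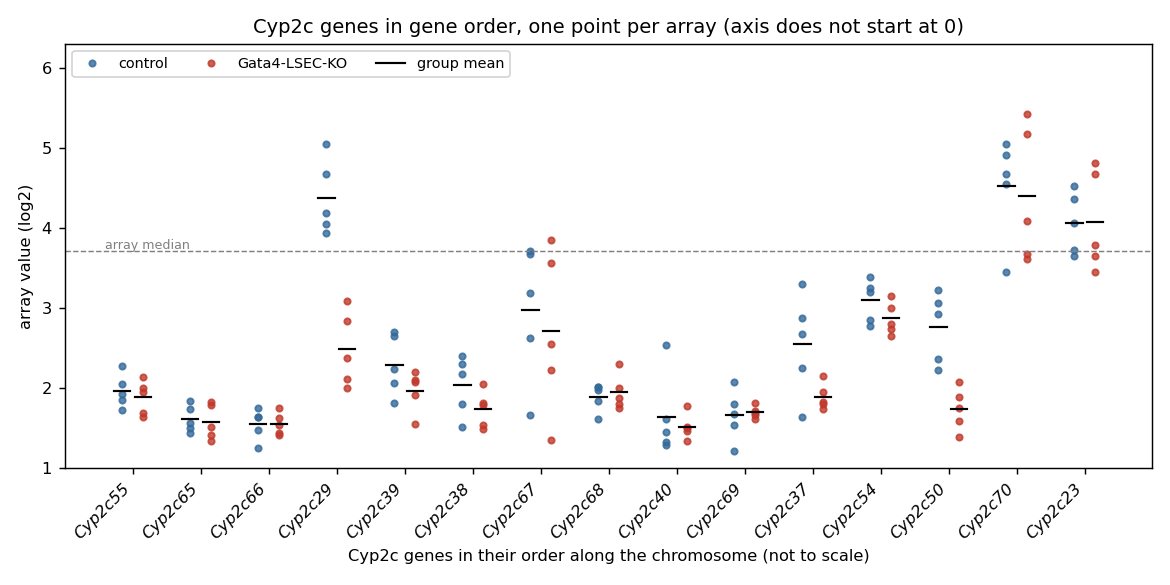
Log2 readings of the 15 Cyp2c genes in their order along chromosome 19 (not to scale), 1 point per array and a bar at each group mean, with the array median of 3.71 dashed. The groups are apart for Cyp2c29 and Cyp2c50 and overlap for the other 13.

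Of the 12 measured members known from pericentral hepatocytes, the 3 named above fell and 9 did not pass. Over all genes 0.846% were called lower. The list was chosen with earlier results of these data known, so its count is no independent test of a pericentral pattern. The median log2 fold change of the 12 was -0.26, and only 3 of the 12 averaged above the array median. Cyp1a2, which metabolises caffeine and aromatic amines, gave knockout readings of 3.47, 3.01, 4.29, 3.14 and 2.67 and control readings of 3.61, 4.86, 5.18, 5.09 and 4.76. Control replicate 1 lay among the knockout arrays and the other 4 controls above them all. The log2 fold change was -1.38 ± 0.34 (SE) with an adjusted p of 0.0656. Cyp1a2 passed without control replicate 1 (-1.65, adjusted p = 0.00701) and without knockout replicate 3 (-1.62, adjusted p = 0.0264). With all arrays kept, it passed with array weights (-1.53, adjusted p = 0.00437) and with the filter on dim genes (-1.38, adjusted p = 0.0423). It passed under no other alternative. Cyp3a11, a main drug-metabolising enzyme induced through the pregnane X receptor, read 6.03 ± 0.93 and 6.24 ± 0.62 (SD, n = 5). Cyp2a4, a steroid hydroxylase, was at 0.30 ± 0.43, and Cyp2d9 at -0.02 ± 0.18. The PPAR alpha targets Cyp4a10 (0.19 ± 0.14) and Cyp4a14 (0.09 ± 0.12) read under the array median in every array.

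Hepatocyte markers outside the P450 families were mostly above 0. Of 14 hepatocyte markers outside the P450 genes, 1 rose and 13 did not pass, 12 lay above 0, and the median was 0.60. Over all genes 1.30% were called higher. The marker that rose was Tat, tyrosine aminotransferase (log2 fold change 2.06 ± 0.40, adjusted p = 0.0210), whose call ended on omitting knockout replicate 1, control replicate 3, control replicate 4 or control replicate 5 (adjusted p up to 0.0596). The mean of the list was 6.71 to 8.40 in knockout arrays and 6.62 to 7.19 in control arrays, and all 14 markers averaged above the array median. Knockout replicates 1 and 4, at 8.40 and 8.21, lay above every control. In these arrays Cyp2e1 read 6.18 and 7.18, below the lowest control reading of 7.57, and Cyp2c29 read 2.84 and 2.37, below the lowest control reading of 3.94. With the list mean as a covariate, Cyp2c29 was at -1.98 ± 0.30 (adjusted p = 0.0117) and Cyp2e1 at -1.76 ± 0.32 (adjusted p = 0.0303), both still called, while Cyp2c50 was at -1.02 ± 0.24 (adjusted p = 0.0937). In that fit Cyp2a22 was called higher, against 0.56 ± 0.25 (adjusted p = 0.340) without the covariate. With knockout replicates 1 and 4 left out together, a setting chosen after seeing the data, Cyp2c29 was at -1.98 (adjusted p = 0.0283), Cyp2e1 at -1.74 (adjusted p = 0.0560) and Cyp2c50 at -0.98 (adjusted p = 0.190). Albumin, Alb, chosen after its values were seen, was at 0.96 ± 0.34 (adjusted p = 0.210). In these bulk samples, fewer cells of a type and less RNA per cell cannot be told apart.

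Zonal hepatocyte genes outside the P450 families were read in the same way. Over all genes 13.6% had an unadjusted p under 0.05, and 0.846% were called lower and 1.30% higher. Of 15 pericentral genes, 1 fell and 14 did not pass, and 9 had an unadjusted p under 0.05. The gene that fell was Rnase4, a secreted ribonuclease (-1.09 ± 0.16, adjusted p = 0.00514). Whatever their p, 13 lay below 0 and 2 above, with a median of -0.38. Of 14 periportal genes 0 passed by limma, 5 were under an unadjusted p of 0.05, 11 lay above 0 and the median was 0.68. Those with the smallest p were Arg1, the arginase of the urea cycle (1.28 ± 0.38, adjusted p = 0.128), and Pck1, which feeds gluconeogenesis (1.50 ± 0.45, adjusted p = 0.130). Ass1, a urea cycle enzyme gene named after its values were seen, lay in the other direction at -1.50 ± 0.56 (adjusted p = 0.239). It was 1 of the 5 periportal genes with an unadjusted p under 0.05. Among the periportal genes the groups did not overlap for Ass1 and Pck1, and over all genes this held for 4.93%. For Ass1, control replicate 1 read 8.16 against 4.90 to 5.41 in the other controls. Several of these zonal genes, Rnase4 and Ahr among them, are also made by cells other than hepatocytes. Whether zonal hepatocyte RNA had a part in the P450 differences was not tested.

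**Figure D4:**
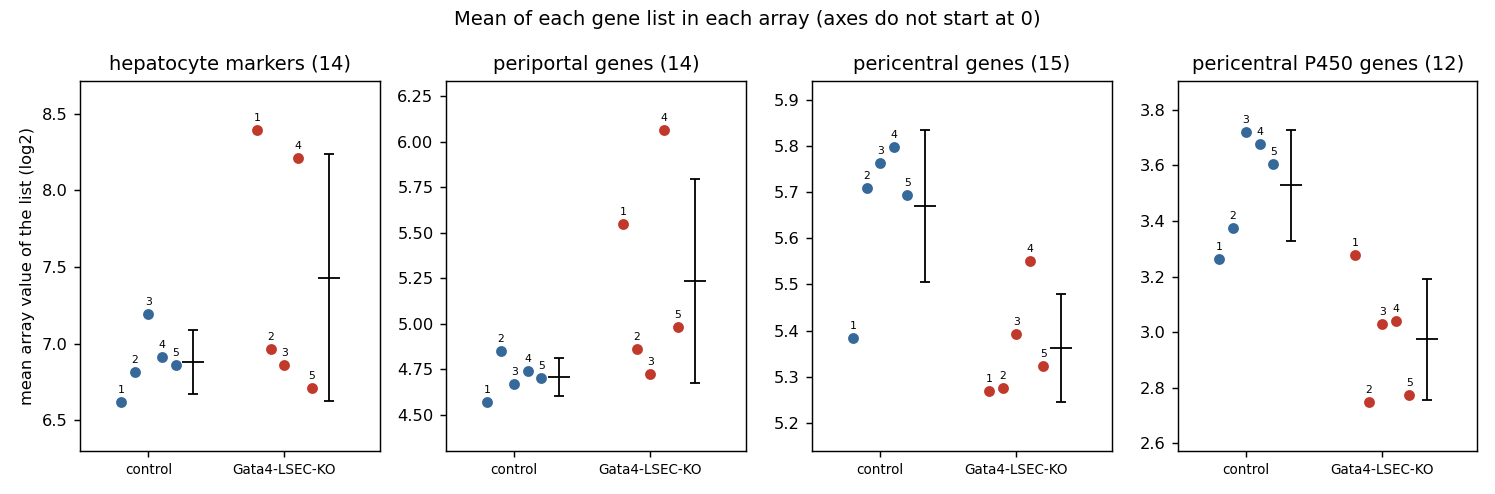
Mean log2 reading of 4 gene lists in each array, with replicate numbers and the group mean ± SD (n = 5): 14 hepatocyte markers, 14 periportal and 15 pericentral genes outside the P450 families, and 12 pericentral P450 genes. Knockout replicates 1 and 4 are high for hepatocyte markers (8.40 and 8.21) and for periportal genes, and the pericentral P450 mean ran from 2.75 to 3.28 in the knockout and from 3.26 to 3.72 in the control.

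Some members read highest in single knockout arrays, within the pericentral list as well as outside it. Of that list, Cyp3a11 and Cyp2a4 read 7.48 and 4.34 in knockout replicate 1, above their highest control readings of 7.26 and 3.02. In knockout replicate 4 they read 6.25 and 2.26, within the range of the controls. Cyp2f2, which oxidises naphthalene and is known from periportal hepatocytes, read 6.08 and 5.32 in knockout replicates 1 and 4 and 3.48 to 3.83 in the other 3, against 3.05 to 4.17 in the control. The log2 fold change of 0.68 ± 0.47 (adjusted p = 0.592) became -0.14 without those replicates. Cyp4f14, a hydroxylase of the leukotriene and fatty acid family, read 4.40, 4.71, 2.73, 3.47 and 2.34 in the knockout and 2.05 to 2.63 in the control. It had the largest upward estimate among the members (1.12 ± 0.40, adjusted p = 0.223), and 4 of its 5 knockout readings lay above all controls. The mean of the 10 cholangiocyte and epithelial markers was 6.03, 6.60, 4.83, 5.49 and 4.39 in knockout replicates 1 to 5 and 3.37 to 4.45 in the control. All 10 of these markers lay above 0, with a median of 1.43, and 2 of them rose. The part of such cells in the Cyp4f14 values was not tested. Cyp2j5, an epoxygenase of the liver and kidney, was at 0.70 ± 0.34 (adjusted p = 0.405), and was named after its values were seen, as was Cyp2a12. Cyp2a12 gave knockout readings of 6.08, 3.90, 4.14, 5.05 and 3.97 and control readings of 4.17 to 4.76, so knockout replicates 1 and 4 lay above every control and the other 3 below every control. Its log2 fold change was 0.26 ± 0.37 (adjusted p = 0.814).

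Of the 3 genes of family 1, 0 passed by limma, all 3 had an unadjusted p under 0.05, and their signs differed. Cyp1a1, the classical target of the aryl hydrocarbon receptor, gave knockout readings of 3.53, 3.92, 4.21, 3.57 and 4.41 and control readings of 3.87, 5.24, 5.04, 5.10 and 4.66, a log2 fold change of -0.86 ± 0.26 (adjusted p = 0.147). Without control replicate 1, which again lay among the knockout arrays, it was at -1.09 with an adjusted p of 0.0125. Cyp1b1, which oxidises oestradiol and retinol and is known from vascular cells, gave knockout readings of 5.51, 6.21, 6.39, 5.92 and 5.48 and control readings of 5.09, 5.37, 5.19, 5.01 and 4.63. These groups did not overlap, and the log2 fold change was 0.84 ± 0.20 (adjusted p = 0.0578). Over the alternatives its adjusted p lay on both sides of the threshold, from 0.0223 with array weights to 0.142 on leaving out 1 array, and at 1 with the neutrophil covariate. The receptor gene Ahr, chosen after its values were seen, was at -0.48 ± 0.14 (adjusted p = 0.126). The mean of the 12 mesenchymal and stellate cell markers was 6.35 to 8.02 in the knockout and 5.34 to 7.11 in the control, and its part in the Cyp1b1 values was not tested.

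Of the 15 members known outside hepatocytes, 0 passed by limma, 4 were under an unadjusted p of 0.05, 12 lay below 0 and 3 above. The mean of this list was 4.555 to 4.665 in the knockout and 4.681 to 4.898 in the control. The groups did not overlap, but the nearest values, 4.665 in knockout replicate 3 and 4.681 in control replicate 3, lay close together. The highest mean, 4.898, was that of control replicate 1, the array that stood apart. How often the means of such lists separate was not tested. Cyp4b1, a fatty acid hydroxylase of lung and other endothelia, gave knockout readings of 9.92, 9.80, 10.61, 10.57 and 10.40 and control readings of 10.75, 11.03, 10.80, 11.03 and 10.89. Its mean reading lay at percentile 99.7 of all genes. Its groups did not overlap, and the log2 fold change was -0.64 ± 0.17 (adjusted p = 0.0851). Cyp2d22, outside that list, read 6.88 ± 0.29 and 7.45 ± 0.25 (SD, n = 5), a change of -0.58 ± 0.16 (adjusted p = 0.108).

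The other 12 members of that list beside Cyp1a1, Cyp1b1 and Cyp4b1 did not pass. Cyp2r1, the vitamin D 25-hydroxylase, was at -0.31 ± 0.29, and Cyp2u1, a hydroxylase of arachidonic acid, at -0.17 ± 0.19. Cyp4v3, the relative of human CYP4V2, was at 0.07 ± 0.23, and Cyp3a13 at 0.34 ± 0.15 (adjusted p = 0.353). The epoxygenases Cyp2j6 (-0.11 ± 0.19) and Cyp2j9 (-0.54 ± 0.29), the extrahepatic Cyp2s1 (-0.10 ± 0.25) and Cyp2w1 (-0.23 ± 0.16), and Cyp4f13 (-0.11 ± 0.19), Cyp4f16 (-0.23 ± 0.16) and Cyp4x1 (-0.41 ± 0.29) also did not pass. Cyp4f18, which inactivates leukotriene B4 in neutrophils, read 3.58 to 3.89 in the knockout. The controls read 3.31 to 3.82, apart from control replicate 1 at 5.33. The 15 neutrophil markers averaged 4.20 to 5.80 in the knockout and 3.20 to 3.68 in the control, and 8 of them rose. Of the 12 macrophage and dendritic cell markers 1 rose, with list means of 5.94 to 6.57 in knockout arrays and 4.80 to 6.43 in control arrays. Of the 11 lymphocyte markers 1 rose, with list means of 3.68 to 3.87 and 3.23 to 3.65.

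The remaining subfamilies held no called gene. Of the 9 genes of the drug-metabolising Cyp2d subfamily, which include the pseudogene Cyp2d13, 7 lay below 0, and all lay between -0.58 and 0.14. Of the 8 Cyp3a genes 6 lay below 0, and Cyp3a41b ran from 3.56 to 7.01 in the knockout and from 3.87 to 6.12 in the control, a difference of -0.45 ± 0.64. Cyp3a25 was at -0.44 ± 0.23. The 5 Cyp2b genes, to which the CAR target Cyp2b10 (-0.51 ± 0.27, adjusted p = 0.445) belongs, all averaged under the array median. The same held for the 8 Cyp4a genes, fatty acid hydroxylases, which lay between -0.25 and 0.19. Of the 9 Cyp4f genes, 7 lay below 0. The 3 Cyp2a genes lay above 0 (0.26 to 0.56), and of the 8 Cyp2j genes 5 lay below. The single genes Cyp2ab1, Cyp2g1 and Cyp2t4 lay between -0.31 and 0.05, and the noncoding Cyp4x1os was at -0.16 ± 0.11.

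Genes that serve or regulate the P450 enzymes were read from 5 lists, in which 3 genes passed: Pparg, Ptgis and Dhrs3. The share called over all genes, 2.14%, is the background for these counts. Of 14 redox partners and haem synthesis genes 0 passed by limma (3 at an unadjusted p under 0.05), and the 2 with the smallest p were Cpox, a late enzyme of haem synthesis (-0.43 ± 0.11, adjusted p = 0.0747), and Hmox2, which degrades haem (-0.38 ± 0.11, adjusted p = 0.105). Of 21 receptors and regulators 1 rose, Pparg, a fatty acid receptor (1.56 ± 0.20, adjusted p = 0.00189). Of 20 P450 genes of family 5 and above 1 rose, Ptgis, the prostacyclin synthase (1.18 ± 0.22, adjusted p = 0.0206), whose call ended without knockout replicate 2 or control replicate 3 or 4. Of 30 conjugating and other drug-metabolising enzymes 0 passed (3 at an unadjusted p under 0.05). Those with the smallest p were Ugt1a1, which conjugates bilirubin (-0.77 ± 0.21, adjusted p = 0.0886), and the glutathione transferase Gstt1 (0.69 ± 0.19, adjusted p = 0.0982). Of 20 eicosanoid and retinoid partners 1 fell, Dhrs3, a retinal reductase (-0.56 ± 0.12, adjusted p = 0.0419). That call ended on omitting any array other than control replicate 1, with adjusted p up to 0.112, and with the hepatocyte covariate (0.160) or centring (0.146).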

How the data were processed

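RNA of 10 samples was hybridised to 1-colour Affymetrix arrays. The deposited table holds the authors' log2 values. RMA is the one tool named, without a version, per the submitters' processing notes. RMA corrects background, brings arrays to one distribution and summarises probes, so small differences of dim genes are compressed. Precision is limited by having 5 arrays in each group. Detection calls and probe positions were not used here. The platform annotation gave 1 symbol for 24705 of 25428 probe sets, several for 0 and none for 723. The brighter probe set stood for the 1 duplicated symbol. All 81 members matched the RefSeq gene table of GRCm38.p6 by Entrez number.

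Groups were compared with limma 3.58.1 in R 4.3.3 (lmFit, eBayes) on all 10 arrays and 24704 genes without covariates, in both directions, and the procedure was tested on simulated data. Alternatives left out each array, or used a replicate block, an intensity trend, robust variances, array weights, a filter on dim genes, hepatocyte or neutrophil list means as covariates, or centring on pan-endothelial markers. Replicate numbers did not pair the arrays: the deviations of same-numbered arrays correlated at -0.16 to 0.04. Members and gene lists were chosen with earlier results of these data known. Named members are those called or without overlap, the 10 with the highest mean, the 5 with the largest change and a list of always reported genes. Of other lists, up to 4 called genes are named, or the 2 with the smallest p. Marker lists are given as counts and means, with Mcam and Emcn named in addition. Remaining members appear to account for all 81.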

Additional observations from a re-analysis of the deposited data

Results flagged for a closer look

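Among the named genes, 90 groups of 5 arrays were examined for 1 array far from the other 4 by Dixon's test, and 7 were found. Chance gives about 1 in 20. In 6 of the 7 the array was control replicate 1, which also correlated least with the others. It read 3.61 for Cyp1a2 against 4.76 to 5.18 in the other controls, and 4.30 for Cyp2j6 against 5.01 to 5.29. It read 5.58 for Cyp2s1 against 4.15 to 4.46, 5.33 for Cyp4f18 against 3.31 to 3.82, and 5.16 for Cyp4x1 against 3.62 to 4.00. For Pparg it read 3.57 against 4.52 to 4.77. In the knockout, replicate 1 read 4.34 for Cyp2a4 against 1.66 to 2.41 in the other arrays.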

How the results depend on the processing

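Cyp2c29 was called under every alternative that tested it except the neutrophil covariate, with log2 fold changes from -2.05 to -1.73 on leaving out 1 array. That covariate separates the groups by itself, since all 5 knockout arrays lay above all controls, and no gene of 24704 was called with it (0, against 529). Of the members, 8 were called with array weights (7 lower), 0 with the neutrophil covariate (0 lower), and 1 with knockout replicates 1 and 4 left out together (1 lower), an alternative chosen after seeing the data. Apart from leaving out 1 array, 1 member was called higher in each of 5 settings. These were Cyp1b1 with the replicate block, array weights, the filter or centring, and Cyp2a22 with the hepatocyte covariate. Cyp1b1 was also called higher on leaving out knockout replicate 5. Leaving out 1 array gave 1 to 5 members called, 1 to 5 lower, 0 to 1 higher, and 287 to 737 genes in all. The total was 275 with the replicate block, 1070 with array weights, 274 with the hepatocyte covariate, 303 with centring and 170 without those 2 replicates. With the replicate block Cyp2c50 missed the threshold (adjusted p = 0.0564) and Cyp1b1 passed it (0.0383).

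Members that changed direction were never called. With the neutrophil covariate these were Cyp2d9 (0.18), Cyp2j6 (0.10), Cyp2r1 (0.0029), Cyp2u1 (0.0803), Cyp3a11 (0.75), Cyp3a41b (1.18), Cyp4a10 (-0.0455), Cyp4v3 (-0.40) and Cyp4x1 (0.25). With the hepatocyte covariate they were Cyp2a4 (-0.20), Cyp2f2 (-0.0937) and Cyp4v3 (-0.0016), and without knockout replicates 1 and 4 Cyp2a4 (-0.17), Cyp2f2 (-0.14) and Cyp4a14 (-0.0144). Array weights turned Cyp2s1 (0.11), Cyp4f18 (0.0704) and Cyp4v3 (-0.0903), and centring turned Cyp2d9 (0.0201). Leaving out 1 array gave -0.14 to 0.53 for Cyp2a4, -0.155 to 0.0823 for Cyp2d9, -0.19 to 0.16 for Cyp2s1, -0.567 to 0.0522 for Cyp3a11, -0.24 to 0.0031 for Cyp4f13, -0.36 to 0.15 for Cyp4f18 and -0.15 to 0.17 for Cyp4v3. The cause was not tested. The dim reading of 56 of 81 members limits what can be seen.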
